A study of Mus musculus with 2 samples.

Results

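The genes described here encode the collagen and laminin chains of the mouse lens together with the other proteins that build and trim its capsule, compared between lens cortical fiber cells and lens epithelial cells. They were taken by symbol from the array annotation: every collagen alpha chain, every laminin alpha, beta or gamma chain, the nidogens, perlecan (Hspg2), agrin (Agrn), Sparc, and the metalloproteinase inhibitors Timp1, Timp2 and Timp3. Of 13709 measured genes, 53 met this rule, and they were read by 59 probes. Agrn and Lama5 had no probe with a single symbol and were not analysed here.

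Poly(A) RNA came from lenses of 5 mice aged 13 days, dissected with forceps into cortical fiber cells and into capsules that carried the adhering epithelium. The cortex sample and the epithelium sample were hybridized to 1 array each. No genotype, strain, sex or treatment is given for either sample, and any pooling of animals is a detail not given in the sources used here. The epithelium sample thus included the capsule itself and whatever cells adhered to it. A free-text note on both samples mentions fetal liver RNA, in contrast to the lens named in their titles.

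The lens capsule is a thick basement membrane that encloses the whole lens. Its framework is a network of collagen IV, built from heterotrimers of 6 possible chains, that is tied to a second network of laminin trimers by nidogen and perlecan. The anterior capsule is laid down by the epithelium and the posterior capsule by fiber cells. Fibrillar collagens, in contrast, form the banded fibers of stroma, sclera, cartilage and vitreous and are not building blocks of a basement membrane. The comparison asks whether the chains of the capsule and the fibrillar collagens differ between the cells of the cortex and those of the epithelium.

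Values are normalized intensities, scaled so that the median of an array is about 1; that median was 0.998 in cortex and 0.997 in epithelium. Signals under a floor of 0.5 of the median (0.499 on both arrays) were raised to it, so that a gene seen above the floor in 1 sample only has a bound, written as "at least N-fold". A gene counted as higher in a sample when its fold there was 3 or more and its brighter value was no lower than the array median. Since no sample was replicated, no test was possible, and each difference below is that of 1 array against 1 array. The only spread available is the disagreement among probes that read the same gene. Its pooled SD was 1.10 and its median SD 0.59 on the log2 scale, over 558 genes. It holds no variation between arrays, dissections or animals. The markers followed the sample labels, but their lists were chosen with earlier results of these data known, so they are no independent check. Of 7 fiber cell genes, 6 passed 3-fold in cortex (85.7%, against 9.41% of all genes). These were Bfsp1, Crygd, Crygf, Grifin, Lgsn and Mip. All 5 epithelial genes (Foxe3, Cdh1, Pdgfra, Aqp1 and Igfbp5) passed in epithelium on their brighter probe, against 8.17% of all genes. When second probes were used 3 of 5 did, against 7.85% of all genes. Those of Pdgfra (log2 -1.45) and Igfbp5 (-0.02) did not pass. Of 4 measured erythroid and liver genes, Apoa1 and Ttr were at the floor on both arrays, Afp stood at 0.660 in cortex and 0.680 in epithelium, and Hba-a1 at 1.39 and 1.79. In bulk RNA, fewer cells that express a gene and less of its RNA per cell cannot be told apart.

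Of the 53 matrix genes, 12 passed the 3-fold limit in epithelium (22.6%, against 8.17% of all genes). In the other direction, 4 passed it in cortex (7.55%, against 9.41% of all genes). A further 23 lay above the floor on at least 1 array without passing 3-fold, and 14 were at the floor on both. The 12 were Col4a1, Col4a2, Col4a4, Col4a6, Lama2, Lamb1, Lamb2, Lamc1, Col27a1, Col1a2, Col5a1 and Timp1. The 4 were Lama3, Col15a1, Col23a1 and Col26a1. After centring on ribosomal protein genes 3 matrix genes passed in cortex and 18 in epithelium, beside 4.27% and 20.2% of all genes under that scaling. It moved the median difference of all genes measured above the floor in both samples to -0.89, against 0.03 with the deposited scaling.

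**Figure D1:**
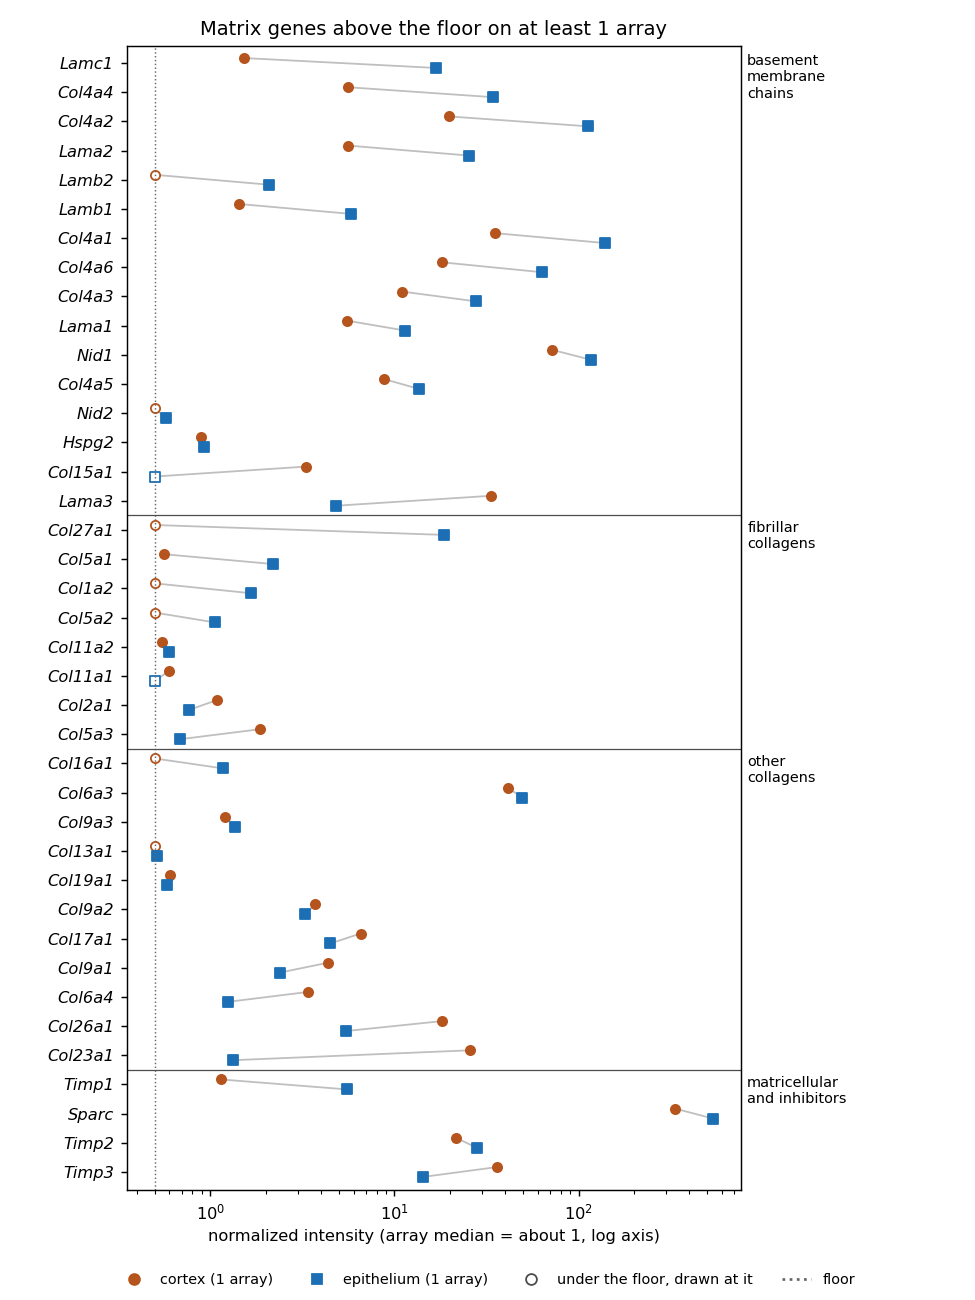
Normalized intensity (log axis) of the 39 matrix genes that exceeded the floor somewhere, with cortex as circles and epithelium as squares, 1 array each, ordered within each role by their difference. Collagen IV and most laminin chains lie to the right in epithelium, while Lama3, Col15a1, Col23a1 and Col26a1 lie to the right in cortex; open symbols are values under the floor, drawn at it.

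All 6 collagen IV chains were dimmer in cortex than in epithelium, as were 49.0% of all genes measured above the floor in both samples. The 3-fold limit was passed by 4 of them in epithelium (66.7%, against 8.17% of all genes). The median log2 difference of the 6 was -1.90, beside 0.00 over all genes. Col4a1, which with Col4a2 makes the collagen IV trimer found in nearly every basement membrane, stood at 35.1 in cortex and 139.6 in epithelium, 3.97-fold higher in epithelium (log2 difference -1.99). Col4a2 had 19.8 in cortex against 113 in epithelium, a log2 difference of -2.51 and the larger fold of the pair at 5.71. Both chains of the general trimer were thus several-fold brighter in epithelium while remaining well above the floor in cortex.

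Col4a3, Col4a4 and Col4a5 encode the chains of a second trimer, known from the glomerulus, the lens capsule and the inner ear, whose mutation causes Alport syndrome in humans. Col4a3 stood at 11.0 in cortex and 27.9 in epithelium, which is 2.54-fold brighter in epithelium and under the limit. It passed the limit under quantile scaling (-1.73) and under ribosomal centring (-2.27). Col4a4 stood at 5.61 in cortex and 34.1 in epithelium on its brighter probe, 6.09-fold higher in epithelium. Its second probe read 2.78 in cortex and 3.54 in epithelium, a log2 difference of -0.35, so the 2 probes gave the same direction and very different sizes. Col4a5 stood at 8.76 in cortex and 13.6 in epithelium, 1.56-fold brighter in epithelium. Col4a6, whose chain joins that of Col4a5 in a further trimer, stood at 18.2 in cortex and 63.6 in epithelium, 3.50-fold higher in epithelium (log2 difference -1.81). The X-linked chains therefore lay in the same direction, with the difference of Col4a5 near the median SD between probes. Each of these 2 genes was read by 1 probe on 1 array per sample, so the error of neither difference is known.

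The 6 collagen IV genes lie in the genome as 3 pairs, each pair read in opposite directions from a common interval. In RefSeq (GRCm38.p6), Col4a1 occupies chr8:11198423-11312889 and Col4a2 chr8:11312805-11449287, and their annotated spans share 85 bases. Col4a4 (chr1:82448419-82587034) and Col4a3 (chr1:82586921-82722059) share 114 bases. Col4a6 (chrX:141165403-141474095) and Col4a5 (chrX:141475370-141689236) are 1274 bases apart. The promoter windows of Col4a1, Col4a2 and Col4a4 are printed because each overlaps the window or the annotated span of the other gene of its pair. Col4a3 had no window, and the windows of Col4a6 and Col4a5 share no base. Whether the arrangement of the pairs bears on the differences between the samples was not tested. The windows run from 250 bases before to 50 bases after a RefSeq start site, 5′ to 3′ on the strand of the gene. In the first 2, capitals mark the 78 bases (chr8:11312777-11312854) that the Col4a1 and Col4a2 windows share, read there on opposite strands. The start site used for each of these 2 genes lies within the window of the other. Those used for Col4a1 (chr8:11312826) and Col4a4 (chr1:82586849) lie inside the annotated spans and not at their ends. In the third, capitals mark the 179 bases that lie inside the annotated span of Col4a3.
Col4a1: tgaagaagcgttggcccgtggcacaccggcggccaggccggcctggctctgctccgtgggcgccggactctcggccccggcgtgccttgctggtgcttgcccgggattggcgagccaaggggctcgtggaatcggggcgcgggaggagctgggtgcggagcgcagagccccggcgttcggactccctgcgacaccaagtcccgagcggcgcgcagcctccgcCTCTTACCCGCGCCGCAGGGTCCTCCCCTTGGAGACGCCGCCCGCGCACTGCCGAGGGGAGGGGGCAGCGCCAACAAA
Col4a2: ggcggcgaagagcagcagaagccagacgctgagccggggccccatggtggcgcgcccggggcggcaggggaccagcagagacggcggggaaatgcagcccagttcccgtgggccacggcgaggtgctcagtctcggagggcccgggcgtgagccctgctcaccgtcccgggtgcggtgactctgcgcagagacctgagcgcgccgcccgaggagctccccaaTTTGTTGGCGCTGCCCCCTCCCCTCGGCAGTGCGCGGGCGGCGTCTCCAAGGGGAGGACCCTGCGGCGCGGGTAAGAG
Col4a4: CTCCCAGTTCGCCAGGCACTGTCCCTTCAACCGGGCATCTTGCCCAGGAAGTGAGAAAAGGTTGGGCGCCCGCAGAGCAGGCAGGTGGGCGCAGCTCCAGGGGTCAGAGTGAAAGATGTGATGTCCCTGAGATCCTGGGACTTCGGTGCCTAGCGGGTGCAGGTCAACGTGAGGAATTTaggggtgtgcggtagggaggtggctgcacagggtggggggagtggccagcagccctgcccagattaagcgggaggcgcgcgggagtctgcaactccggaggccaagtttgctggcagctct
These windows are chr8:11312777-11313076 on the minus strand, chr8:11312555-11312854 on the plus strand and chr1:82586800-82587099 on the minus strand.

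A window was available for 40 of the 53 matrix genes, and 3 motifs were searched on both strands. The 78-base stretch shared by the Col4a1 and Col4a2 windows holds GGGCGG, the core of a GC box, once, and the CT-rich run CCCTCCCC once, and these 2 matches do not overlap. It holds no CCAAT, which occurs once in each of the 2 whole windows, in that of Col4a2 across the edge of the shared stretch. Of all 32851 promoter windows, 35.7% hold GGGCGG, 10.8% hold CCCTCCCC and 37.4% hold CCAAT. Of the 15 windows of basement membrane genes, 60% hold GGGCGG, 26.7% CCCTCCCC and 40% CCAAT, and of the 8 windows of fibrillar collagens the shares were 75%, 25% and 37.5%. The Col4a4 window holds none of the 3 motifs, and the matches are a description of letters only.

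Laminins are cross-shaped trimers of 1 alpha, 1 beta and 1 gamma chain, and the 9 measured chains split. Of these, 4 passed 3-fold in epithelium (44.4%, against 8.17% of all genes) and 1 in cortex (11.1%, against 9.41%), 1 differed by less, and 3 (Lama4, Lamb3 and Lamc3) were at the floor on both arrays. Lamc1, the gamma chain of most laminin trimers, had 1.53 in cortex against 16.9 in epithelium, an 11.0-fold difference (log2 -3.47). Lamb1, the beta chain that pairs with it in early basement membranes, stood at 1.43 in cortex and 5.80 in epithelium, 4.05-fold higher in epithelium. Lamb2, the beta chain of mature and synaptic basement membranes, was under the floor in cortex (0.0688) and stood at 2.08 in epithelium, at least 4.18-fold higher there. When the floor was raised to the median the Lamb2 bound was 2.09-fold and no longer passed. The gamma chain and both measured beta chains above the floor thus lay on the side of epithelium.

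The alpha chains, which carry the cell-binding end of the trimer, went in both directions. Lama1, the alpha chain of embryonic laminin and of the lens capsule, stood at 5.55 in cortex and 11.5 in epithelium, 2.07-fold brighter in epithelium and under the limit. Among the settings tried it passed the limit under ribosomal centring alone. Lama2, known for muscle and peripheral nerve, stood at 5.61 in cortex and 25.3 in epithelium, 4.50-fold higher in epithelium. Lama3, the alpha chain of the laminin that anchors stratified epithelia, went the other way, with 33.4 in cortex and 4.84 in epithelium, 6.90-fold higher in cortex (log2 difference 2.79). Lamb3, its usual beta partner in skin, was at the floor on both arrays. Lama3 kept its call under quantile, loess and ribosomal scaling and under the higher floor, and it rests on 1 probe.

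The linkers of the 2 networks differed less. Nid1 (nidogen-1), which joins laminin to collagen IV, stood at 72.0 in cortex and 116.8 in epithelium, 1.62-fold brighter in epithelium. It passed 3-fold under quantile scaling (-1.63) and under ribosomal centring (-1.62). Nid2 was under the floor in cortex (0.359) and near it in epithelium (0.576). Hspg2 (perlecan, a heparan sulfate proteoglycan) stood at 0.885 in cortex and 0.928 in epithelium, both under their array medians and only 1.05-fold apart. The multiplexins Col15a1 and Col18a1 are collagens of the basement membrane zone that release endostatin-like fragments. Col15a1 stood at 3.29 in cortex and under the floor in epithelium (0.346), at least 6.60-fold higher in cortex, or 3.30-fold as a bound when the floor was raised to the median. Col18a1 was at the floor on both arrays.

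As a group, 8 of the 20 basement membrane genes passed 3-fold in epithelium (40%, against 8.17% of all genes) and 2 in cortex (10%, against 9.41%). Of the 13 above the floor on both arrays, 12 were dimmer in cortex, against 49.0% of all genes measured on both, and Lama3 was the exception. The group's median log2 difference was -0.87 over all 20 genes, beside 0.00 over all genes. Over the 16 that exceeded the floor in either sample it was -1.57, beside 0.07.

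**Figure D2:**
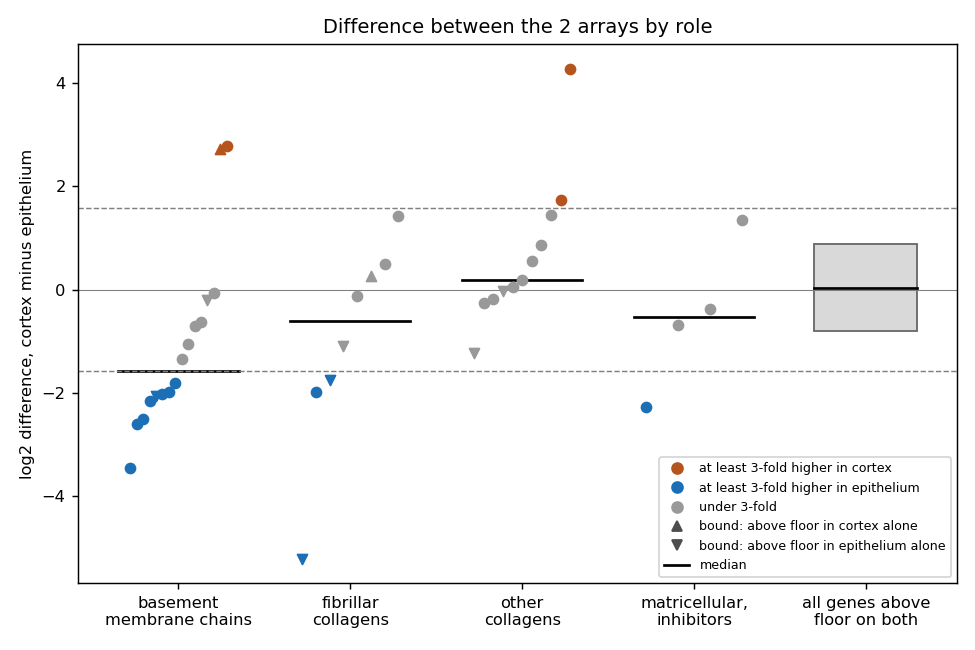
Log2 difference, cortex minus epithelium, of the matrix genes that exceeded the floor, by role, with bounds as triangles, the 3-fold limits as dashed lines and the median as a bar. The grey box gives the middle range from the lower to the upper quartile (-0.79 to 0.91) and the median of all genes above the floor on both arrays; basement membrane chains have a median of -1.57 here and fibrillar collagens of -0.61.

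Fibrillar collagens gave a sparser picture. Of 11 measured, 3 were at the floor on both arrays (Col1a1, Col3a1 and Col24a1), 4 were above it on both, 3 in epithelium alone and 1 in cortex alone. The 3-fold limit was passed by 3 in epithelium (27.3%, against 8.17% of all genes) and by none in cortex (against 9.41%). The median over the 11 was 0.00, beside -0.87 for the 20 basement membrane genes. That 0.00 comes from the 3 genes at the floor, which were set to 0, as 5 differences lay below 0 and 3 above. It is therefore not a measured lack of difference. Over the genes that exceeded the floor in either sample the median was -0.61, beside -1.57. Over those above it on both arrays it was 0.19 for the 4 fibrillar collagens, beside -1.81 for the 13 basement membrane genes. No test of the difference between the 2 groups was possible with 1 array each.

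Col27a1, a fibrillar chain best known from cartilage, stood out, with a value under the floor in cortex (0.277) and 18.6 in epithelium. It was at least 37.3-fold higher in epithelium, a bound that became 18.7-fold when the floor was raised to the median. Col1a2, the second chain of collagen I, stood under the floor in cortex (0.0548) and at 1.67 in epithelium, at least 3.35-fold higher in epithelium. Its partner Col1a1, which supplies most of the collagen I trimer, was at the floor on both arrays, so the 2 chains of the same trimer did not give the same reading. Of the chains of collagen V, which sets the diameter of collagen I fibrils, Col5a1 stood at 0.558 in cortex and 2.20 in epithelium, 3.94-fold higher in epithelium. The second Col5a1 probe read 0.433 in cortex, under the floor, and 0.564 in epithelium, at least 1.13-fold brighter. Col5a2 was under the floor in cortex (0.110) and stood at 1.06 in epithelium, at least 2.12-fold brighter there. Col5a3 ran the other way, at 1.85 in cortex and 0.687 in epithelium, 2.69-fold brighter in cortex and under the limit.

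The calls of Col1a2 and Col5a1 rested on dim signals. When the floor was raised to the median their bounds were 1.68-fold and 2.21-fold, and Col27a1 alone among the fibrillar chains still passed. The chains of cartilage and vitreous fibrils were near the floor. Col2a1 stood at 1.08 in cortex and 0.764 in epithelium, and Col11a2 at 0.544 and 0.597. Col11a1 stood at 0.598 in cortex and under the floor in epithelium (0.398). None of these 3 differed by more than 1.42-fold, or had a bound above that.

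Markers of the stromal and vascular cells that make fibrillar collagen elsewhere were examined beside these values. Of 10 measured markers of fibroblasts and periocular mesenchyme, 4 were above the floor in cortex and 4 in epithelium, with summed intensities of 48.6 and 21.5, or 15.9 and 5.94 without Ogn (32.7 and 15.6). The matrix proteoglycan genes Dcn and Lum, and Thy1, Prrx1 and Foxc2, were at the floor on both arrays. Twist2 (10.1 in cortex, 2.87 in epithelium) and Foxc1 (3.32 in cortex, 0.314 and under the floor in epithelium) were at least 3-fold higher in cortex. They make up 20% of the 10, against 9.41% of all genes, and none passed in epithelium, against 8.17%. Pdgfrl was under the floor in cortex (0.408) and stood at 1.44 in epithelium, at least 2.88-fold brighter there. Twist1 stood at 0.824 in cortex and 0.734 in epithelium. None of 8 vascular endothelial genes passed 3-fold in epithelium (against 8.17% of all genes) or in cortex (against 9.41%). Pecam1, Cdh5, Kdr and Emcn did not exceed the floor in either sample. Tek stood at 0.928 in cortex and 2.40 in epithelium, 2.58-fold brighter in epithelium. Tie1 exceeded the floor in epithelium alone (0.480 in cortex, 0.913 in epithelium, at least 1.83-fold). Cldn5 did so in cortex alone (0.776 in cortex, 0.273 in epithelium, at least 1.56-fold). Esam stood at 0.598 in cortex and 0.657 in epithelium. The summed intensities of the 8 were 4.07 in cortex and 4.90 in epithelium. None of 7 pericyte and smooth muscle genes passed in either direction, beside the same shares of all genes, with sums of 72.2 and 57.3. Most of that came from Acta2 (65.1 and 41.2), without which the sums were 7.14 in cortex and 16.1 in epithelium, and Pdgfrb stood at 4.46 in cortex and 12.9 in epithelium. Of 10 ciliary body and pigment genes, 5 passed 3-fold in epithelium (50%, against 8.17% of all genes) and 1 in cortex (10%, against 9.41%). The 5 were Ptgds, Msx1, Oca2, Tyrp1 and Gpx3, and the 1 was Dct. The sums of the 10 were 13.4 in cortex and 147 in epithelium. Without Ptgds (7.54 and 123) the sums were 5.81 and 24.3. The part of these cells in the collagen and laminin values, or in those of the other lists given further on, was not tested.

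Of the 18 other collagens, 2 passed 3-fold in cortex (11.1%, against 9.41% of all genes) and none in epithelium (against 8.17%). Col10a1, Col14a1, Col25a1, Col6a1, Col6a5, Col7a1 and Col8a1 were at the floor on both arrays. Col23a1, a transmembrane collagen, stood at 25.8 in cortex and 1.32 in epithelium, 19.5-fold higher in cortex. Its second probe read 0.827 in cortex and 0.727 in epithelium, a log2 difference of 0.19, so the call rests on 1 of 2 probes. Col26a1 stood at 18.1 in cortex and 5.46 in epithelium, 3.32-fold higher in cortex, and it did not pass under quantile scaling (1.54) or ribosomal centring (0.81).

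The rest of this group lay under 3-fold. Col6a3, a chain of the beaded filaments of collagen VI, stood at 41.1 in cortex and 49.5 in epithelium. The related Col6a4 stood at 3.40 in cortex and 1.25 in epithelium, 2.72-fold brighter in cortex, while its second probe read 1.21 and 1.53, a log2 difference of -0.34 in the opposite direction. Its brighter probe passed 3-fold in cortex under loess (1.63). Col17a1, a transmembrane collagen of hemidesmosomes, stood at 6.54 in cortex and 4.48 in epithelium. The chains of collagen IX, which coats collagen II fibrils, differed by at most 1.83-fold. Col9a1 stood at 4.35 in cortex and 2.38 in epithelium, 1.83-fold brighter in cortex. Col9a2 stood at 3.71 in cortex and 3.28 in epithelium, and Col9a3 at 1.21 and 1.37. Col16a1 was under the floor in cortex (0.123) and stood at 1.17 in epithelium, at least 2.34-fold brighter in epithelium. Col19a1 (0.601 in cortex, 0.584 in epithelium) and Col13a1 (0.333 and 0.512) were near the floor or under it.

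Sparc and the 3 metalloproteinase inhibitors were all measured on both arrays. Sparc encodes a collagen-binding protein of basement membranes whose loss in mice causes cataract with an altered capsule. It stood at 335 in cortex and 538 in epithelium, 1.60-fold brighter in epithelium. Its difference depended on the scaling, with a log2 value of -0.68 as deposited, -1.96 under loess and -2.67 under quantile scaling, the last 2 past 3-fold, and -1.61 under ribosomal centring, also past it. Timp1 stood at 1.15 in cortex and 5.53 in epithelium, 4.81-fold higher in epithelium. Timp2 stood at 21.6 in cortex and 28.1 in epithelium, 1.30-fold brighter in epithelium. Timp3, the inhibitor that stays bound to matrix, stood at 36.1 in cortex and 14.3 in epithelium, 2.54-fold brighter in cortex and under the limit. The inhibitors thus did not share a direction.

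Collagen chains are hydroxylated, glycosylated and folded in the endoplasmic reticulum, then cut and cross-linked outside the cell, and the genes for these steps were lower in cortex as a group. Of 26 measured collagen processing genes, 16 passed 3-fold in epithelium (61.5%, against 8.17% of all genes) and 2 in cortex (7.69%, against 9.41%), with a median log2 difference of -2.23 beside 0.00 over all genes. The count in epithelium was 15 when the floor was raised to the median, beside 6.40% of all genes. It was 17 after quantile, loess or ribosomal scaling, beside 9.48%, 7.83% and 20.2% of all genes. Lox, Loxl4, Pcolce2, Tgm2 and Tll2 were at the floor on both arrays.

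Among the enzymes of hydroxylation, P3h2, a prolyl 3-hydroxylase that acts on collagen IV, stood at 0.998 in cortex and 11.2 in epithelium, 11.2-fold higher in epithelium. P3h3 was under the floor in cortex (0.176) and stood at 7.87 in epithelium, at least 15.8-fold higher there. P3h1 (6.84 in cortex, 27.7 in epithelium) and its partner Crtap (5.44 and 36.2) differed 4.05-fold and 6.66-fold in the same direction. The lysyl hydroxylase genes Plod2 (0.401, under the floor, in cortex and 4.50 in epithelium) and Plod3 (5.34 and 23.5) were at least 9.02-fold and 4.40-fold higher in epithelium. Plod1 was 2.54-fold brighter in cortex on one probe (6.01 in cortex, 2.37 in epithelium), but 3.11-fold brighter in epithelium, past the limit, on the other (0.816 and 2.53), so it has no settled direction. Of the prolyl 4-hydroxylase genes, P4ha2 (0.344, under the floor, in cortex and 2.55 in epithelium) and P4hb (7.29 and 35.7) were higher in epithelium, while P4ha1 stood at 27.1 in cortex and 19.3 in epithelium. The hydroxylases were thus mostly, though not all, brighter in epithelium.

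Folding and glycosylation genes followed. Serpinh1, the collagen chaperone of the endoplasmic reticulum, stood at 3.31 in cortex and 17.8 in epithelium, 5.37-fold higher in epithelium. Colgalt1, a collagen galactosyltransferase, was 4.53-fold higher there (3.94 and 17.9). Ppib, a peptidyl-prolyl isomerase, had 28.7 in cortex against 84.8 in epithelium, a log2 difference of -1.57 that lay just under the limit. Sec24d, a coat protein of the vesicles that carry procollagen, went the other way, with 16.4 in cortex and 2.19 in epithelium, 7.46-fold higher in cortex.

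Outside the cell, Bmp1, the procollagen C-proteinase, stood at 7.16 in cortex and 34.8 in epithelium, 4.86-fold higher in epithelium. Its enhancer Pcolce stood at 4.02 in cortex and 107 in epithelium, 26.5-fold higher in epithelium. Tll1, a relative of Bmp1, was 3.63-fold higher in cortex (8.22 and 2.26). Pxdn encodes peroxidasin, which forms the sulfilimine bonds that cross-link collagen IV, and it stood at 4.64 in cortex and 39.4 in epithelium, 8.49-fold higher in epithelium. Of the lysyl oxidase-like genes, Loxl1 stood at 20.8 in cortex and 134 in epithelium, 6.44-fold higher in epithelium. Loxl2 (0.623 and 4.15) and Loxl3 (0.651 and 4.16) differed 6.65-fold and 6.39-fold in the same direction.

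**Figure D3:**
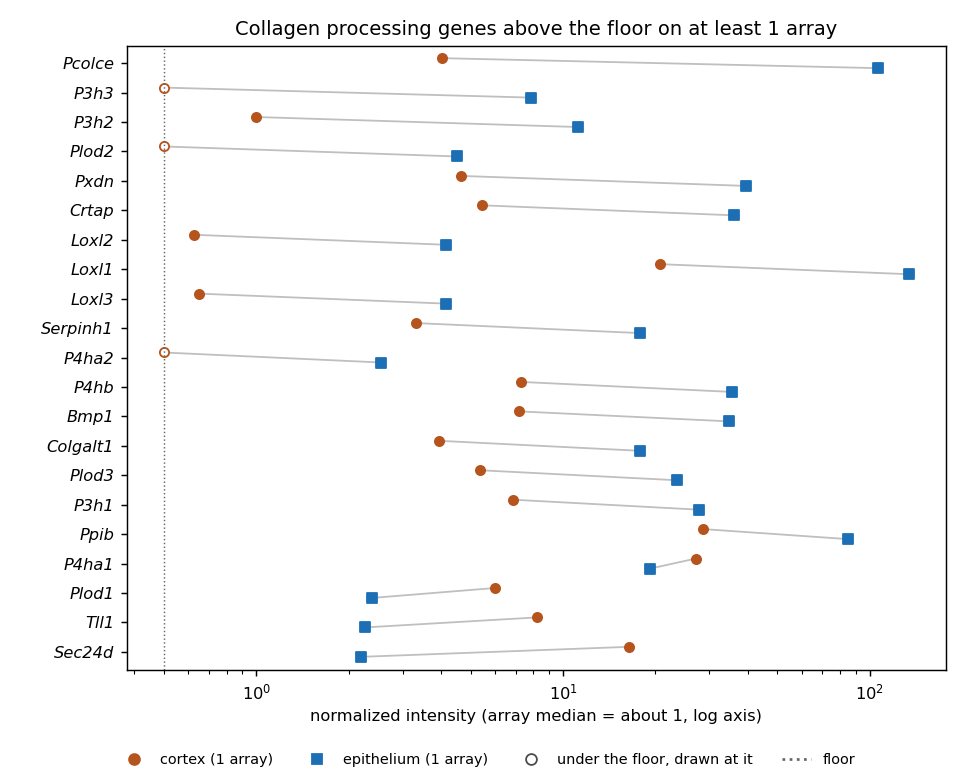
Normalized intensity (log axis) of the 21 collagen processing genes that exceeded the floor, with cortex as circles, epithelium as squares and values under the floor as open symbols at the floor. All but Ppib, P4ha1, Plod1, Tll1 and Sec24d were at least 3-fold higher in epithelium.

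Proteases, further basement membrane proteins and cell receptors held fewer calls, and none of them passed 3-fold in cortex, against 9.41% of all genes. The protease list of 28 measured genes also holds the inhibitor genes Timp4 and Reck. Timp4 stood at 0.991 in cortex and under the floor in epithelium (0.146), at least 1.99-fold brighter in cortex. Of the 28 genes, 17 were at the floor on both arrays and 3 were higher in epithelium (10.7%, against 8.17% of all genes). These were Mmp14, a membrane-anchored collagenase (0.776 in cortex, 13.7 in epithelium, 17.6-fold), Mmp11 (0.839 and 5.35, 6.38-fold) and the aggrecanase gene Adamts5 (0.769 and 2.95, 3.83-fold). Mmp2, the gelatinase that cuts collagen IV, stood at 1.94 in cortex and 1.53 in epithelium, and Mmp9 was at the floor on both. When the floor was raised to the median, 2 of these 3 calls were left, beside 6.40% of all genes at that floor. Of the 11 genes of this list above the floor on at least 1 array, 6 were brighter in cortex and 5 in epithelium. Mmp21 stood at 1.27 in cortex and under the floor in epithelium (0.497), at least 2.55-fold brighter in cortex.

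Of 14 further basement membrane genes, 4 were higher in epithelium (28.6%, against 8.17%), and each of the 4 was under the floor in cortex. Tinagl1, a basement membrane glycoprotein gene, stood at 0.0562 in cortex and 20.1 in epithelium, at least 40.3-fold higher in epithelium. Sparcl1, a relative of Sparc, stood at 0.283 in cortex and 3.07 in epithelium, at least 6.15-fold. Fbln1 (fibulin-1) and Frem2, a protein of the Fraser complex, had bounds of 4.69-fold and 4.43-fold. The count was 2 when the floor was raised to the median, beside 6.40% of all genes at that floor.

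Of 19 receptors and membrane partners of the basement membrane, 6 were higher in epithelium (31.6%, against 8.17%). The syndecan genes Sdc4 (1.04 in cortex, 22.0 in epithelium) and Sdc2 (3.33 and 40.6) were 21.3-fold and 12.2-fold higher in epithelium. The collagen receptor kinase genes Ddr1 (3.85 and 15.9) and Ddr2 (0.575 and 2.52) were 4.15-fold and 4.39-fold higher. Itga3, the alpha chain of a laminin-binding integrin, was under the floor in cortex (0.307) and stood at 2.51 in epithelium, at least 5.03-fold, and Sgcb, a sarcoglycan, was 3.64-fold higher. Itgb1, the common beta chain of these integrins, stood at 5.27 in cortex and 8.45 in epithelium, and Itga6 at 3.31 and 2.50, both under the limit. Dag1, the dystroglycan gene, was at the floor on both arrays. When the floor was raised to the median, 4 passed, beside 6.40% of all genes at that floor.

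**Figure D4:**
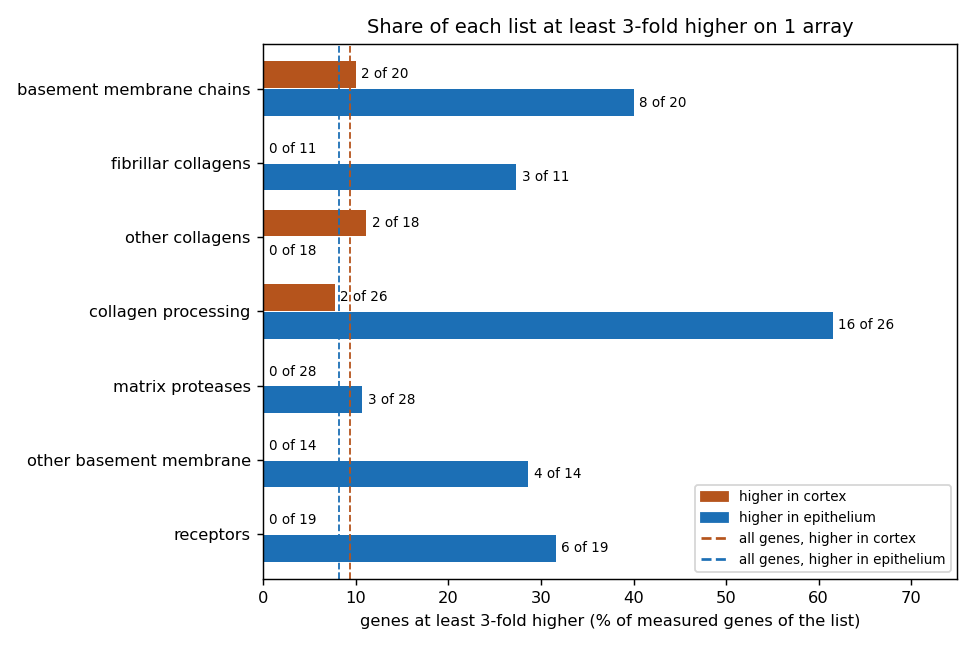
Share of the measured genes of each list that passed 3-fold in cortex (upper bar) or in epithelium (lower bar), with the shares of all genes, 9.41% and 8.17%, as dashed lines. Collagen processing genes (16 of 26) and basement membrane chains (8 of 20) hold the largest shares in epithelium among the 7 lists drawn.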

How the data were processed

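Per the labels, biotin-labelled complementary RNA was hybridized to 1-colour CodeLink arrays, stained with a Cy5 conjugate, scanned and read with the CodeLink software. The deposited table holds 1 normalized intensity per probe and array for 19819 probes on a linear scale, as values below 0 (161 in cortex, 74 in epithelium) and maxima of 5411 and 1061 show. The authors' scaling and background correction are details not given in the sources used here. Probes missing a value on either array (100, none of a matrix gene) were left out. Of all probes, 15120 had 1 symbol in the platform annotation, 38 had several and 4661 had none. All 53 matrix genes matched RefSeq (GRCm38.p6) by Entrez identifier with unchanged symbols.

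The deposited scaling was kept, values were raised to the floor and log2 was taken. Differences are log2 cortex minus log2 epithelium, and genes under the floor in both samples were set to 0. The platform's own detection limit is not known here, and the floor does not stand for it. The probe with the highest mean log2 value stood for a gene, and other probes of a matrix gene are given where above the floor. Precision is limited by the number of arrays. All matrix genes are named, and of the pathway and marker lists the genes past 3-fold, with a few more that were chosen after their values were seen. The members, lists and rules were chosen with earlier results of these data known. The procedure was run on simulated data with known changes, placed only in genes well above the floor. The simulated noise was below the pooled SD between probes. That run therefore gives no error for the calls here and does not bear on those near the floor. Alternatives were quantile normalization, a loess fit of the difference on mean brightness (span 0.3), centring on the median of 66 ribosomal protein genes, other floors, other probe rules and fold limits of 2 and 5. Promoter windows are those of RefSeq (GRCm38.p6). Python 3.11.15, numpy 2.4.6, pandas 2.3.3, statsmodels 0.14.6 and matplotlib 3.10.9 were used.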

Additional observations from a re-analysis of the deposited data

How the results depend on the processing

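With 1 array per sample, replicates could not be left out in turn. No paired analysis was possible because each group has 1 sample and no test was made. The count of matrix genes at least 3-fold higher in epithelium was 12 as reported and ranged from 9 (floor at the array median) to 18 (ribosomal centring) over the scalings, floors and probe rules, and the count in cortex was 4 and ranged from 3 to 5. Beside the 9 and the 18 stood 6.40% and 20.2% of all genes under the same settings. For cortex the shares of all genes ran from 4.27% (ribosomal centring) to 10.4% (no floor). A 5-fold limit left 4 in epithelium and 3 in cortex, beside 3.48% and 5.09% of all genes. A 2-fold limit gave 16 and 7, beside 15.3% and 16.4% of all genes. Of the 12 calls in epithelium 9, and of the 4 in cortex 3, held in each of 4 settings (quantile, loess, ribosomal centring, floor at the median); Lamb2, Col1a2, Col5a1 and Col26a1 did not. The median of basement membrane chains, -0.87, was -1.80 after ribosomal centring, -1.57 over genes that exceeded the floor in either sample and -1.81 over those that did in both. The median of fibrillar collagens, 0.00, was -0.66 after ribosomal centring and -0.61 over genes that exceeded the floor in either sample. It was 0.19 over the 4 above the floor on both arrays and 0.05 with no floor, so its sign is not settled. Ribosomal centring lowers every measured difference by 0.93, by construction, and added Col4a3 (-2.27), Lama1 (-1.97), Nid1 (-1.62), Sparc (-1.61), Col5a2 (-2.01) and Col16a1 (-2.15) to the calls in epithelium. With the second probe the calls of Col4a4 (-0.35), Col5a1 (-0.18) and Col23a1 (0.19) were lost, and the cause was not tested. Dropping the filter on dim genes changed no count, since the floor and the 3-fold limit already imply it. Whole-series calls split 1290 in cortex to 1120 in epithelium, and 585 to 2771 after ribosomal centring.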
